A study of Mus musculus with 30 samples.

Results

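Microglia were sorted from the ischemic hemisphere of mice that lacked TREM1 and of mice that had it, and the gene expression of these cells is compared here. The arrays were chosen by their labels, 6 TREM1 knockout (KO) microglia arrays and 6 wild-type (WT) microglia arrays, 12 of the 30 arrays of the series. KO mice were TREM1-/- and WT mice were TREM1+/+, all of them male C57BL/6 mice of 8 to 10 weeks. Both genotypes underwent 45 min of middle cerebral artery occlusion, which models ischemic stroke, and the cells were taken 48 h after reperfusion. Microglia were sorted as CD45 low, CD11b positive cells, and the labels also give this gate as Ly6G positive, which is the mark they use for neutrophils. The same labels describe 5 KO and 4 WT neutrophil arrays and 6 KO and 3 WT macrophage arrays, which entered the model and served for the tests between cell types. No array came from an uninjured brain, so each value describes microglia after stroke. How the KO strain was made, what it lacks of the Trem1 gene and in which cells are not given in the labels, and these name the 12 samples as biological replicates without saying whether animals were pooled.

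TREM1 is a receptor on the surface of myeloid cells that has no signalling tail of its own. It pairs with the adaptor DAP12, encoded by Tyrobp, whose immunoreceptor tyrosine-based activation motif (ITAM) recruits the kinase SYK, and the signal amplifies responses that Toll-like receptors start. Microglia are the resident macrophages of the brain and use the same adaptor for TREM2, a receptor for lipids and cell debris.

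The deposited values were RMA intensities of 22103 transcript clusters, the units in which this array reports a gene, and levels below are their log2. Arrays had a median intensity of 110 to 116 in KO microglia and 107 to 120 in WT microglia. Precision is limited by there being 6 arrays a group. Within its group an array correlated on average at 0.982 to 0.986 in KO microglia and 0.983 to 0.986 in WT microglia. On the first principal component of the 12 arrays, which held 19.0% of the variance, KO microglia 2 lay at 49.5 and the other 11 arrays between -30.5 and 25.1.

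The sorted cells carried markers of microglia, the cell type named in their titles. Over the 23 measured genes of the microglia identity list the mean level of an array was 13.54 to 14.45 in KO microglia and 13.51 to 14.37 in WT microglia. In the other cells the same mean was 10.40 to 11.37 in KO neutrophils, 10.12 to 11.00 in WT neutrophils, 10.36 to 10.73 in KO macrophages and 10.05 to 10.62 in WT macrophages. P2ry12, a purinergic receptor that steers microglial processes, was at 15.21, 15.71 and 16.41 (lowest, median and highest array) in KO microglia and 15.31, 15.65 and 16.53 in WT microglia. Tmem119, a surface protein used to tell microglia from blood-derived macrophages, was at 10.99, 11.81 and 13.75 in KO microglia and 11.34, 11.91 and 13.12 in WT microglia. Sall1, a transcription factor that maintains microglial identity, was at 11.06, 11.39 and 12.49 in KO microglia and 11.18, 11.63 and 12.17 in WT microglia. The arrays of both genotypes overlapped for all 3 genes.

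Neutrophil markers stood apart in a KO array. Their mean over 20 measured genes was 8.75 in KO microglia 2, while it was 6.34 to 7.21 in the other KO microglia arrays and 6.22 to 6.85 in WT microglia. In the neutrophil arrays this mean was 12.27 to 13.35 in KO and 13.36 to 15.41 in WT. Fewer cells of a type and less RNA per cell cannot be told apart in such bulk samples. Many of the differences that rest on KO microglia 2 are therefore also given without it, and a value given alone may still depend on it. The part of neutrophil RNA in other differences was not tested. Ly6g itself was not analysed here.

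**Figure D1:**
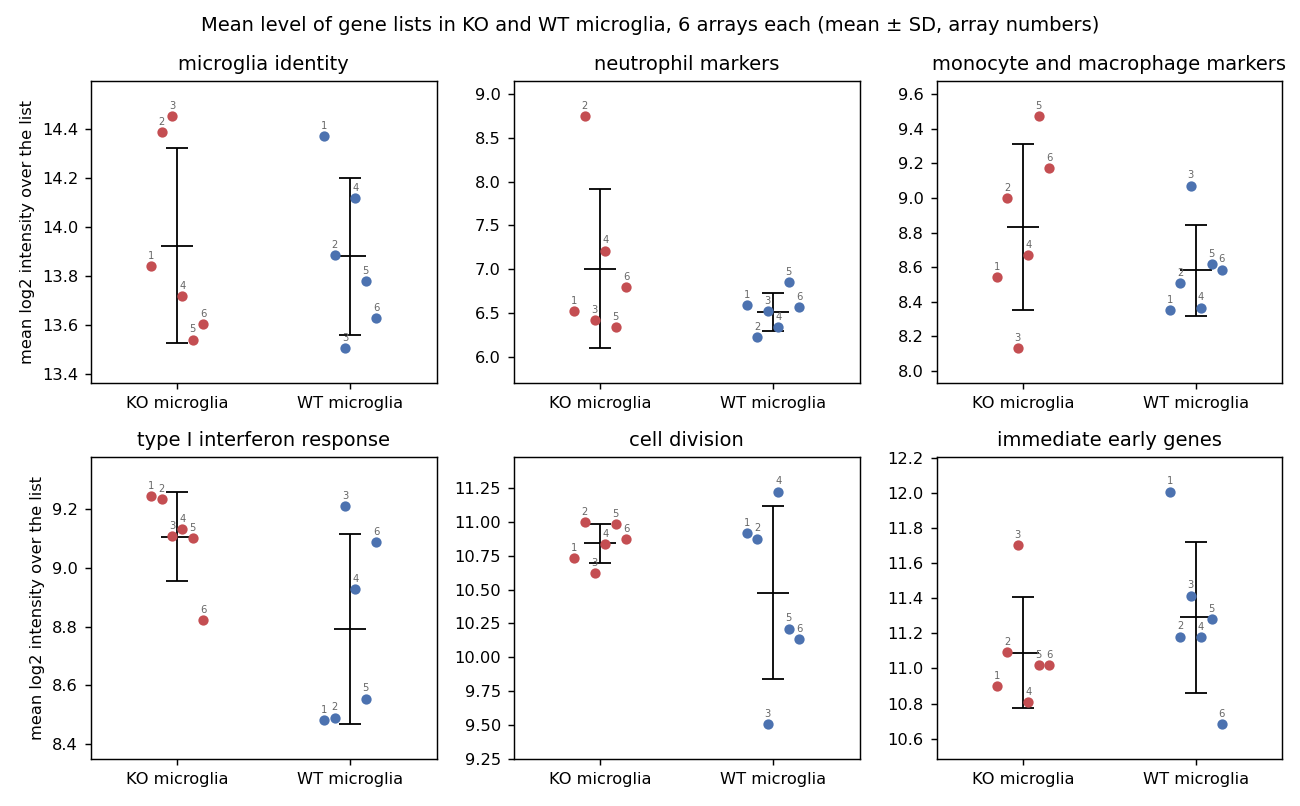
Mean log2 intensity of 6 gene lists (y axis, its range set per panel) in the 6 KO and 6 WT microglia arrays. Points are arrays with their replicate numbers, and bars are the group mean ± SD. KO microglia 2 stands apart in neutrophil markers at 8.75, the type I interferon mean is 9.11 in KO and 8.79 in WT, and WT microglia 3 is the lowest array for cell division at 9.51.

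The question of the comparison is what the loss of TREM1 changes in microglia 48 h after reperfusion, and the gene itself was examined first. Trem1, on chromosome 17, was at 7.50, 8.30 and 9.21 in KO microglia (lowest, median and highest array) and 7.62, 9.91 and 10.44 in WT microglia. Each of the 6 KO arrays was lower than the mean of WT, but WT microglia 1 at 7.62 lay below 5 of them, so the groups overlapped. The means were 8.35 ± 0.68 in KO and 9.60 ± 1.02 in WT (SD, n = 6 each), a difference of -1.25 on the log2 scale (95% interval -1.98 to -0.52). In limma the adjusted p was 0.9999 over all clusters. The exact permutation test of this gene alone gave p = 0.0346, two-sided over all splits of the 12 arrays, where the smallest p possible is 0.00216. That p lay between 0.0563 and 0.0736 without KO microglia 1, 3, 4 or 6, or without WT microglia 2, 3, 4, 5 or 6. It was 0.00433 without WT microglia 1, the array with a Trem1 level far below the other WT arrays. Without KO microglia 2, the array with the highest neutrophil marker mean, the difference was -1.42 (exact p = 0.0303). A probe outside the deleted part would not follow the deletion, so these levels do not check the genotype.

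Trem3 lies beside Trem1 and encodes a related activating receptor of mouse myeloid cells. Its levels were 7.92, 8.60 and 9.51 in KO microglia and 8.76, 9.31 and 10.64 in WT microglia, with 3 KO arrays below every WT array. The difference was -0.73 (95% interval -1.37 to -0.10, unadjusted p = 0.0257) and did not pass the adjustment. It was -0.49 without WT microglia 5. Trem2 was at 14.61, 14.71 and 15.06 in KO microglia and 14.42, 14.69 and 14.85 in WT microglia, a difference of 0.13 (95% interval -0.47 to 0.73). Of the TREM-like receptors, Treml1 differed by -0.24, Treml2 by 0.19 and Treml4 by 0.10, each with an interval that included 0. Without KO microglia 2 the difference of Treml1 was -0.12. Among the 24 measured genes within 1 Mb of Trem1, the median difference was 0.00. In that window 1 gene was higher and 2 were lower at an unadjusted p under 0.05, beside 1.52% and 1.41% of all clusters. They were Guca1a, a guanylate cyclase activator known from photoreceptors (0.73), Frs3, a docking protein of growth factor receptors (-0.46, from dim levels), and Trem3.

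The genes that carry the signal of TREM1 were measured next. Of 17 measured genes of the TREM1 and ITAM list none passed an adjusted or an unadjusted p under 0.05, and 16 had a 95% interval inside a 2-fold change, a share near the 93.7% of all clusters. Their median difference was -0.05, beside 0.00 over all clusters. Tyrobp was at 16.12, 16.40 and 16.56 in KO microglia and 16.18, 16.34 and 16.48 in WT microglia, with a difference of 0.05 (95% interval -0.16 to 0.26). Syk differed by -0.42 (95% interval -0.89 to 0.05), with 3 KO arrays below every WT array. Without KO microglia 2 and 4 together, the KO arrays with the highest neutrophil marker means, the difference of Syk was -0.16. Fcer1g, an ITAM adaptor of myeloid Fc receptors, differed by -0.05. Card9 and Bcl10 of the adaptor complex below SYK differed by -0.10 and -0.24, and Plcg2, a phospholipase of microglial receptors, by 0.06. Pglyrp1, a peptidoglycan-binding protein described as a TREM1 ligand, had the interval that reached beyond 2-fold (0.44, 95% interval -0.36 to 1.24). It is stored in neutrophil granules, and without KO microglia 2 its difference was 0.19.

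**Figure D2:**
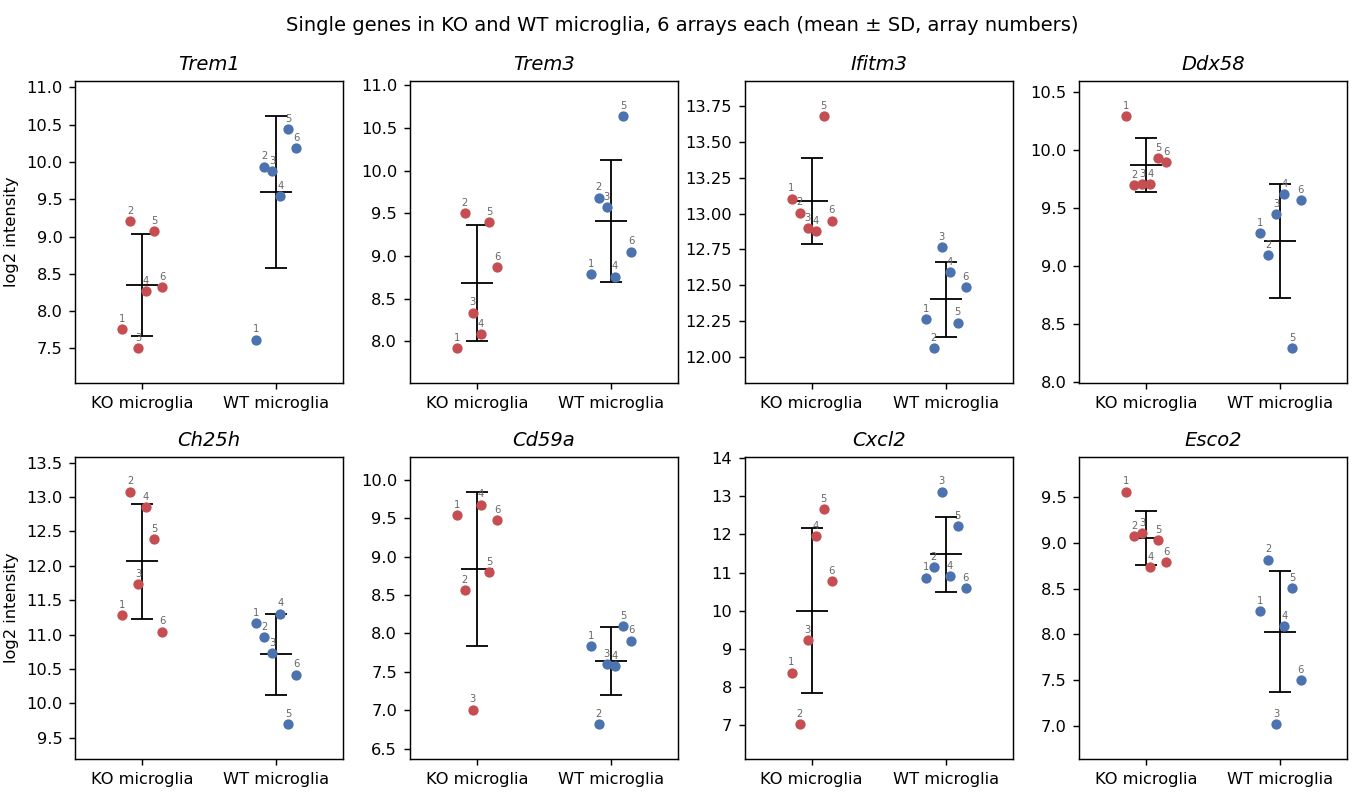
Log2 intensity (y axis, its range set per panel) of 8 genes in the 6 KO and 6 WT microglia arrays. Points are arrays with their replicate numbers, and bars are the group mean ± SD. Ifitm3 and Ddx58 do not overlap between genotypes, while Trem1 overlaps through WT microglia 1 at 7.62 and Cxcl2 spans 7.04 to 12.66 in KO.

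Across the 22103 clusters none passed an adjusted p under 0.05 (0.0%), and the smallest adjusted p by limma was 0.284, of a cluster without a gene symbol. An unadjusted p under 0.05 was reached by 646 clusters (2.92%), of which 335 were higher (1.52%) and 311 lower (1.41%) in KO microglia. In the absence of any change about 1 in 20 clusters would reach it, so this share is no excess. The arrays of the genotypes did not overlap in 24 clusters (0.109%), with KO above WT in 15 (0.0679%) and below in 9 (0.0407%). A difference of 2-fold or more was seen in 23 clusters (0.104%), 14 higher (0.0633%) and 9 lower (0.0407%). The genes below are given as values, since each had an adjusted p of 0.9999. Counts of list members below stand beside these shares, and beside the 93.7% of all clusters with a 95% interval inside a 2-fold change. That last share varied with level, at 98.4% of the 5526 dimmest clusters and 90.4% of the 5526 brightest. The width of an interval also rests on the spread between the neutrophil and the macrophage arrays. A list share below 93.7% therefore does not by itself show more room for change in microglia. List counts from the microglia arrays alone are not given.

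Among genes above the median level, Ifitm3 had the smallest unadjusted p, and it is described with the interferon response. Entpd6, which breaks down nucleoside diphosphates, was at 7.41, 7.74 and 7.95 in KO microglia and 6.36, 7.18 and 7.32 in WT microglia, a difference of 0.72 (95% interval 0.37 to 1.07). Dnph1, an enzyme that removes abnormal nucleotides, was at 8.49, 8.78 and 9.65 in KO microglia and 7.80, 8.03 and 8.38 in WT microglia, a difference of 0.88 (95% interval 0.40 to 1.35). The arrays of the genotypes did not overlap for either gene, nor for the membrane protein gene Tmem39b (0.88). Ch25h, whose product makes an antiviral oxysterol from cholesterol and which is raised in disease-associated microglia, was at 11.05, 12.07 and 13.08 in KO microglia and 9.70, 10.85 and 11.30 in WT microglia. Its difference of 1.35 (95% interval 0.63 to 2.07) came with 4 KO arrays above every WT array, and it was 1.15 without KO microglia 2 and 0.90 without KO microglia 2 and 4. The other genes of this rank were Alg12 of N-glycan synthesis (0.62), the ciliary gene B9d1 (0.75), the cohesin acetyltransferase Esco2 (1.02) and the dynein light chain genes Dynlt1c (0.59) and Dynlt1f (0.56). The last pair are near-identical copies whose probes may share signal, so their values are uncertain.

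On the lower side the values were of similar size. Irf2, a transcription factor that represses interferon-stimulated genes, was at 8.35, 8.83 and 9.22 in KO microglia and 9.11, 9.46 and 9.63 in WT microglia, and 5 KO arrays lay below every WT array. The difference was -0.66 (95% interval -1.09 to -0.23). Cdk11b, a kinase of transcription and splicing, was at 10.31, 10.46 and 10.95 in KO microglia and 10.75, 11.13 and 11.68 in WT microglia, a difference of -0.64 (95% interval -1.03 to -0.26). Kansl3, a subunit of a histone acetyltransferase complex, differed by -0.56 and was below the WT mean in 6 of 6 KO arrays. Further values were -0.95 for Engase, a cytosolic glycosidase of N-glycans, -0.70 for the calcium-regulated transcription factor Nfatc2, -0.60 for the nucleolar deubiquitinase Usp36 and -0.71 for the F-box gene Fbxl20. Cep295nl differed by -0.73 and Haghl by -0.82.

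Of the 43 gene lists the type I interferon response had the highest median difference, 0.36 over 24 measured genes beside 0.00 over all clusters. Of these genes 20 had a positive difference, none passed the adjusted p, and 3 were higher at an unadjusted p under 0.05, beside 1.52% of all clusters. Ifitm3, a membrane protein that keeps viruses from entering the cytosol, was at 12.88, 12.98 and 13.68 in KO microglia and 12.06, 12.37 and 12.77 in WT microglia. Every KO array lay above every WT array, with a difference of 0.69 (95% interval 0.36 to 1.02, unadjusted p = 0.000214). Ddx58, which encodes the RNA sensor RIG-I, was at 9.70, 9.80 and 10.29 in KO microglia and 8.29, 9.37 and 9.62 in WT microglia. Its arrays did not overlap either, and the difference was 0.65 (95% interval 0.22 to 1.08, unadjusted p = 0.00423). The third gene was the oligoadenylate synthetase Oas2 (0.86), which was taken up after its value had been seen. The most abundant members were Bst2, which tethers budding viruses (0.30, 95% interval -0.26 to 0.86), and the DNA-binding interferon target Ifi204 (0.35, 95% interval -0.07 to 0.77).

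The mean over the interferon list was 8.82, 9.12 and 9.25 in KO microglia and 8.48, 8.74 and 9.21 in WT microglia. The groups overlapped, since WT microglia 3, 4 and 6 lay at 8.93 to 9.21 and KO microglia 6 at 8.82. The mean was 9.11 ± 0.15 in KO microglia and 8.79 ± 0.33 in WT microglia, a difference of 0.32, or 0.29 without KO microglia 2. In the model over all cell types the interval of 13 of the 24 members lay inside a 2-fold change, beside 93.7% of all clusters. The list median stayed between 0.28 and 0.44 in 22 alternative settings. Among related genes, Psmb9 of the immunoproteasome differed by 0.46 (95% interval -0.15 to 1.07), and by 0.26 without KO microglia 2. The median of 14 genes of MHC class I presentation was 0.15, with 12 positive and none past an unadjusted p under 0.05, and it was 0.09 without KO microglia 2.

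The promoters of Ifitm3 and Ddx58, the 2 list members whose arrays did not overlap, are shown here with the interferon motif. Each runs from 250 bases before to 50 bases after the start in the RefSeq annotation of GRCm38.p6, at chr7:141010695-141010994 on the minus strand for Ifitm3 and chr4:40239776-40240075 on the minus strand for Ddx58. Capitals mark matches to GAAA, any 2 bases and GAAA, the core of the interferon-stimulated response element, searched on both strands, and overlapping matches count separately.
Ifitm3: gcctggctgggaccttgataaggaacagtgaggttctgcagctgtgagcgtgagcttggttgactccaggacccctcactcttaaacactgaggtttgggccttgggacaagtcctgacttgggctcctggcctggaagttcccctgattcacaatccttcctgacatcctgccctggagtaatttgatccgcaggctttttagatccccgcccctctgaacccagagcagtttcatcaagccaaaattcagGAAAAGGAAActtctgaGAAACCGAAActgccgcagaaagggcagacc
Ddx58: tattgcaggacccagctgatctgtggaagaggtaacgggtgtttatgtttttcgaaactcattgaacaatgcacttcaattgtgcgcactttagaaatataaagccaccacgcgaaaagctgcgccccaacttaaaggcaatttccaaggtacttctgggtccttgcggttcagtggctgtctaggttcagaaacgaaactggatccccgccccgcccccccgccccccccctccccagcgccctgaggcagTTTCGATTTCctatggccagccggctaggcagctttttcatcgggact
Ifitm3 held 2 matches as written and Ddx58 held 1 on the other strand. Of the 17 interferon genes with a promoter window 11 held the motif (64.7%), against 618 of 15681 measured genes (3.94%). Of the 11 genes that held it 8 had a positive and 3 a negative difference (Ifih1 -0.45, Rsad2 -0.21, Ifit3 -0.15), while all 6 without it had a positive one (0.17 to 0.62). The last 3 names were taken up after their values had been seen. A match describes the letters of the window and no binding was measured here.

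Genes of cell division had the next highest median, 0.33 over 29 measured genes. Of these 26 had a positive difference, none passed the adjusted p, and 3 were higher at an unadjusted p under 0.05, beside 1.52% of all clusters. The interval of 13 of the 29 lay inside a 2-fold change, beside 93.7% of all clusters. Ube2c, a ubiquitin-conjugating enzyme of the anaphase-promoting complex, was at 9.99, 11.27 and 12.04 in KO microglia and 8.26, 10.37 and 11.65 in WT microglia. The groups overlapped, with a difference of 1.16 (95% interval 0.42 to 1.91). The cyclin gene Ccnb2 was at 10.93, 11.48 and 12.38 in KO microglia and 9.28, 10.78 and 12.27 in WT microglia, a difference of 0.91 (95% interval 0.24 to 1.58). The third was the mitotic kinesin gene Kif20a (0.62), taken up after its value had been seen. The proliferation marker Mki67 was abundant in both groups and differed by 0.35 (95% interval -0.38 to 1.07). Pcna, the sliding clamp of DNA replication, differed by 0.03 (95% interval -0.45 to 0.52).

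The list mean for cell division was 10.62, 10.86 and 11.00 in KO microglia and 9.51, 10.54 and 11.22 in WT microglia. The KO arrays lay within the range of the WT arrays, and the spread was smaller in KO microglia (SD 0.15) than in WT microglia (SD 0.64), a difference in spread that was not tested. The list median was 0.17 without WT microglia 3, 0.18 without WT microglia 6 and 0.54 without WT microglia 4. The same mean was 7.08 to 7.65 in KO neutrophils and 6.97 to 7.30 in WT neutrophils, below every microglia array of either genotype.

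The lowest list medians were those of inflammatory signalling. NF-kB targets and feedback genes had a median of -0.25 over 22 genes, of which 4 were positive and none passed an unadjusted p under 0.05 in either direction. The interval of 12 of the 22 lay inside a 2-fold change, beside 93.7% of all clusters. Nfkbia, the inhibitor that NF-kB induces to shut itself off, was at 13.70, 14.33 and 15.02 in KO microglia and 13.76, 14.70 and 15.32 in WT microglia, a difference of -0.26 (95% interval -0.85 to 0.33). Nfkbiz, a nuclear cofactor of NF-kB, differed by -0.29, and so did the ribonuclease gene Zc3h12a. Birc3, a ubiquitin ligase that NF-kB induces, went the other way by 0.60 (95% interval -0.16 to 1.37), and by 0.29 without WT microglia 4. The list median was -0.10 without KO microglia 1, -0.16 without KO microglia 6, -0.12 without WT microglia 1 and -0.15 without WT microglia 2.

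Immediate early genes, which respond within minutes to stimulation and also to cell isolation, had a median of -0.23 over 22 genes. Of these 4 were positive and 2 were lower at an unadjusted p under 0.05, beside 1.41% of all clusters. An interval inside a 2-fold change was found for 13 of the 22, beside 93.7% of all clusters. Klf6, a stress-responsive transcription factor, was at 14.78, 15.35 and 15.65 in KO microglia and 15.53, 15.59 and 15.92 in WT microglia, and 4 KO arrays lay below every WT array. The difference was -0.37 (95% interval -0.70 to -0.04), and -0.26 without KO microglia 2. Klf2, a related factor that dampens myeloid activation, was at 7.57, 7.88 and 8.14 in KO microglia and 7.73, 8.43 and 9.13 in WT microglia, a difference of -0.55 (95% interval -1.06 to -0.04). The phosphatase gene Dusp1, the most abundant member, differed by -0.22 (95% interval -0.48 to 0.04). The list mean was 10.81 to 11.70 in KO microglia and 10.68 to 12.01 in WT microglia, so the groups overlapped over most of their range. The list median was -0.15 without KO microglia 4 and -0.13 without WT microglia 1.

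Effectors of inflammation followed. The 13 inflammasome genes had a median of -0.15, with 3 positive and 10 negative. None passed an unadjusted p under 0.05, and all had an interval inside a 2-fold change, beside 93.7% of all clusters. That median was -0.10 without KO microglia 5 and -0.06 without WT microglia 4. The lowest and highest of the genes were the DNA sensor Aim2 (-0.28) and the adaptor Pycard (0.24). Of 24 chemokines 1 was higher and 1 lower at an unadjusted p under 0.05, beside 1.52% and 1.41% of all clusters. The list had 9 positive and 15 negative differences and a median of -0.05. Cxcl2, which attracts neutrophils, was at 7.04, 10.01 and 12.66 in KO microglia and 10.59, 11.02 and 13.12 in WT microglia. KO microglia 1, 2 and 3 lay below every WT array and the other KO arrays within the WT range. The difference was -1.47 (95% interval -2.81 to -0.12), and -0.87 without KO microglia 2. Cxcl14, a chemokine for myeloid and epithelial cells, was at 6.40, 7.19 and 8.01 in KO microglia and 5.97, 6.28 and 6.92 in WT microglia, a difference of 0.87 (95% interval 0.16 to 1.57).

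Of 19 inflammatory cytokines none passed an unadjusted p under 0.05, and 13 had an interval inside a 2-fold change, beside 93.7% of all clusters. Il6 was dim in both groups and had the highest difference, 0.88 (95% interval -0.10 to 1.86), which was 0.37 without KO microglia 3. Tgfb1, an anti-inflammatory growth factor, differed by 0.31 and Il1a by -0.16. In the Toll-like receptor pathway 1 of 20 genes was higher at an unadjusted p under 0.05, beside 1.52% of all clusters. It was Ly96, the coreceptor of Tlr4 also known as MD-2, at 10.03, 10.18 and 11.50 in KO microglia and 9.24, 9.78 and 9.88 in WT microglia. Its arrays did not overlap, with a difference of 0.67 (95% interval 0.09 to 1.25), and 0.44 without KO microglia 6. Of 13 chemokine and complement receptors Cxcr4 was higher at an unadjusted p under 0.05 (0.56, 95% interval 0.08 to 1.05), beside 1.52% of all clusters.

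Genes of microglial identity and of the handling of debris had list medians between -0.05 and 0.03. The microglia identity list had a median of 0.03, none past an unadjusted p under 0.05, and 19 of 23 genes with an interval inside a 2-fold change, beside 93.7% of all clusters. Its most abundant members were the protease inhibitor Cst3 (-0.02, 95% interval -0.25 to 0.21) and the matrix protein gene Sparc (0.03). The interval of Sparc was wide in the model over all cell types, -1.44 to 1.51, and -0.28 to 0.35 in a fit on the 12 microglia arrays alone. Cx3cr1, the fractalkine receptor, differed by -0.06 and Mertk, a receptor for apoptotic cells, by -0.28. Slc2a5, a fructose transporter of microglia, differed by 0.57 (95% interval -0.20 to 1.34), and by 0.30 without KO microglia 2.

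Of 21 genes of disease-associated microglia Ch25h alone passed an unadjusted p under 0.05, and the median was 0.02. The lysosomal genes Ctsb (-0.05) and Cd63 (-0.03) were the most abundant members of that list. The growth factor Igf1 differed by 0.75 (95% interval -0.47 to 1.97), and by 0.35 without WT microglia 5. The 26 lysosomal genes had a median of -0.03, all with an interval inside a 2-fold change, beside 93.7% of all clusters. The 21 genes of phagocytosis and lipid handling had a median of -0.05 and 18 such intervals, with the scavenger receptor Cd36 highest (0.84, 95% interval -0.13 to 1.80). Of 13 complement genes 1 was higher at an unadjusted p under 0.05, beside 1.52% of all clusters. Cd59a, which blocks the membrane attack complex, was at 7.01, 9.14 and 9.68 in KO microglia and 6.82, 7.72 and 8.10 in WT microglia. In 5 KO arrays it lay above every WT array and KO microglia 3 lay within the WT range, with a difference of 1.20 (95% interval 0.49 to 1.92). The initiators C1qa (-0.17) and C1qb (-0.12) and the receptor C3ar1 (-0.10) had intervals that included 0.

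Metabolic and general lists had medians between 0.00 and 0.11. Oxidative phosphorylation was at 0.11 over 29 genes, with 27 positive and none past an unadjusted p under 0.05. Of these genes 28 had an interval inside a 2-fold change, beside 93.7% of all clusters. Cox6c of complex IV differed by 0.22 and Ndufb9 of complex I by 0.31, which was 0.19 without KO microglia 2. The median of that list was 0.06 without KO microglia 2 and 0.02 without KO microglia 2 and 4, and lay between 0.05 and 0.19 with other single arrays left out. Glycolysis and hypoxia genes were at 0.03, with Gapdh at 0.02 and Pgam1 at 0.41, which was 0.27 without KO microglia 2. Cytosolic ribosomal proteins were at 0.05, cholesterol synthesis at 0.00 and chaperones with the unfolded protein response at 0.10, where Hsph1 differed by 0.74 (95% interval -0.04 to 1.51) and the calcium-binding chaperone Calr by 0.37. Other single genes past an unadjusted p under 0.05 were Smad7, an inhibitor of TGF-beta signalling (-0.53, and -0.35 without WT microglia 4), and the cytokine receptor gene Il4ra (-0.27). The lists not described here had medians between -0.08 and 0.09.

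Markers of other cell types were compared last. Of the 20 neutrophil markers 16 had a positive difference, with a median of 0.30, and 6 differed by 2-fold or more, beside 0.104% of all clusters. The interval of 8 of the 20 lay inside a 2-fold change, beside 93.7% of all clusters. The granule gene Ngp was at 5.83, 7.48 and 13.11 in KO microglia and 5.53, 6.04 and 7.60 in WT microglia. Its difference was 2.33 (95% interval 0.09 to 4.56), and 1.42 without KO microglia 2. The calprotectin genes S100a8 (1.46) and S100a9 (1.31) differed by 0.58 and 0.50 without that array. The decoy receptor gene Il1r2 went the other way (-1.18, 95% interval -2.32 to -0.04), with WT microglia 5 at 10.91 and a WT median of 6.15, and without WT microglia 5 the difference was -0.36. The difference of the marker mean was 0.49, 0.14 without KO microglia 2, and 0.00 without KO microglia 2 and 4. S100a8 differed by -0.03 without that pair.

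Of 16 monocyte and macrophage markers, with a median of 0.21 that was 0.02 without KO microglia 5, Chil3 was higher at an unadjusted p under 0.05 (1.32, 95% interval 0.34 to 2.30), from levels of 4.21 to 7.39 in WT microglia. The difference of Chil3 was 0.75 without KO microglia 2 and 4 together. The median of this list was 0.11 to 0.14 without KO microglia 2 or 6 or WT microglia 2 or 4, and 0.34 without KO microglia 3. The monocyte receptor Ccr2 was dim and differed by 1.04 (95% interval -0.03 to 2.10), and by 0.61 without KO microglia 5. The list mean was 8.13 to 9.48 in KO microglia and 8.35 to 9.07 in WT microglia. In KO macrophages it was 14.72 to 15.08. Endothelial markers had a median of 0.16 that was 0.05 without KO microglia 2, 0.09 without KO microglia 1 and 0.02 without WT microglia 2. Of 11 genes 3 were higher at an unadjusted p under 0.05, beside 1.52% of all clusters. They were the VEGF receptor genes Kdr (0.78) and Flt1 (0.41) and, taken up after its value had been seen, the transporter gene Slco1a4 (0.35). The tight junction gene Cldn5, a defining endothelial marker, was dim at 4.76 to 5.93 in KO microglia and 4.46 to 5.70 in WT microglia. The endothelial list mean was 6.31 to 6.50 in KO microglia and 5.97 to 6.50 in WT microglia, and its part in other differences was not tested. Astrocyte markers had a median of 0.23, with 8 of 10 below the median level of all clusters. That median was 0.15 without KO microglia 3 and 0.14 without WT microglia 2. Also dim were T and NK cell markers, with a median of -0.05 and all 12 below that level. Cd8a was lower at an unadjusted p under 0.05 from such dim levels (-0.42). Border-associated macrophage markers had a median of -0.10, which turned to 0.08 without WT microglia 5 and 0.05 without KO microglia 2 and 4, and was -0.01 without KO microglia 4. Among them was the mannose receptor gene Mrc1 (-0.56, 95% interval -1.59 to 0.47). Gfap (-0.12), Mbp (0.12) and Snap25 (0.12), which mark astrocytes, oligodendrocytes and neurons, had intervals inside a 2-fold change.

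**Figure D3:**
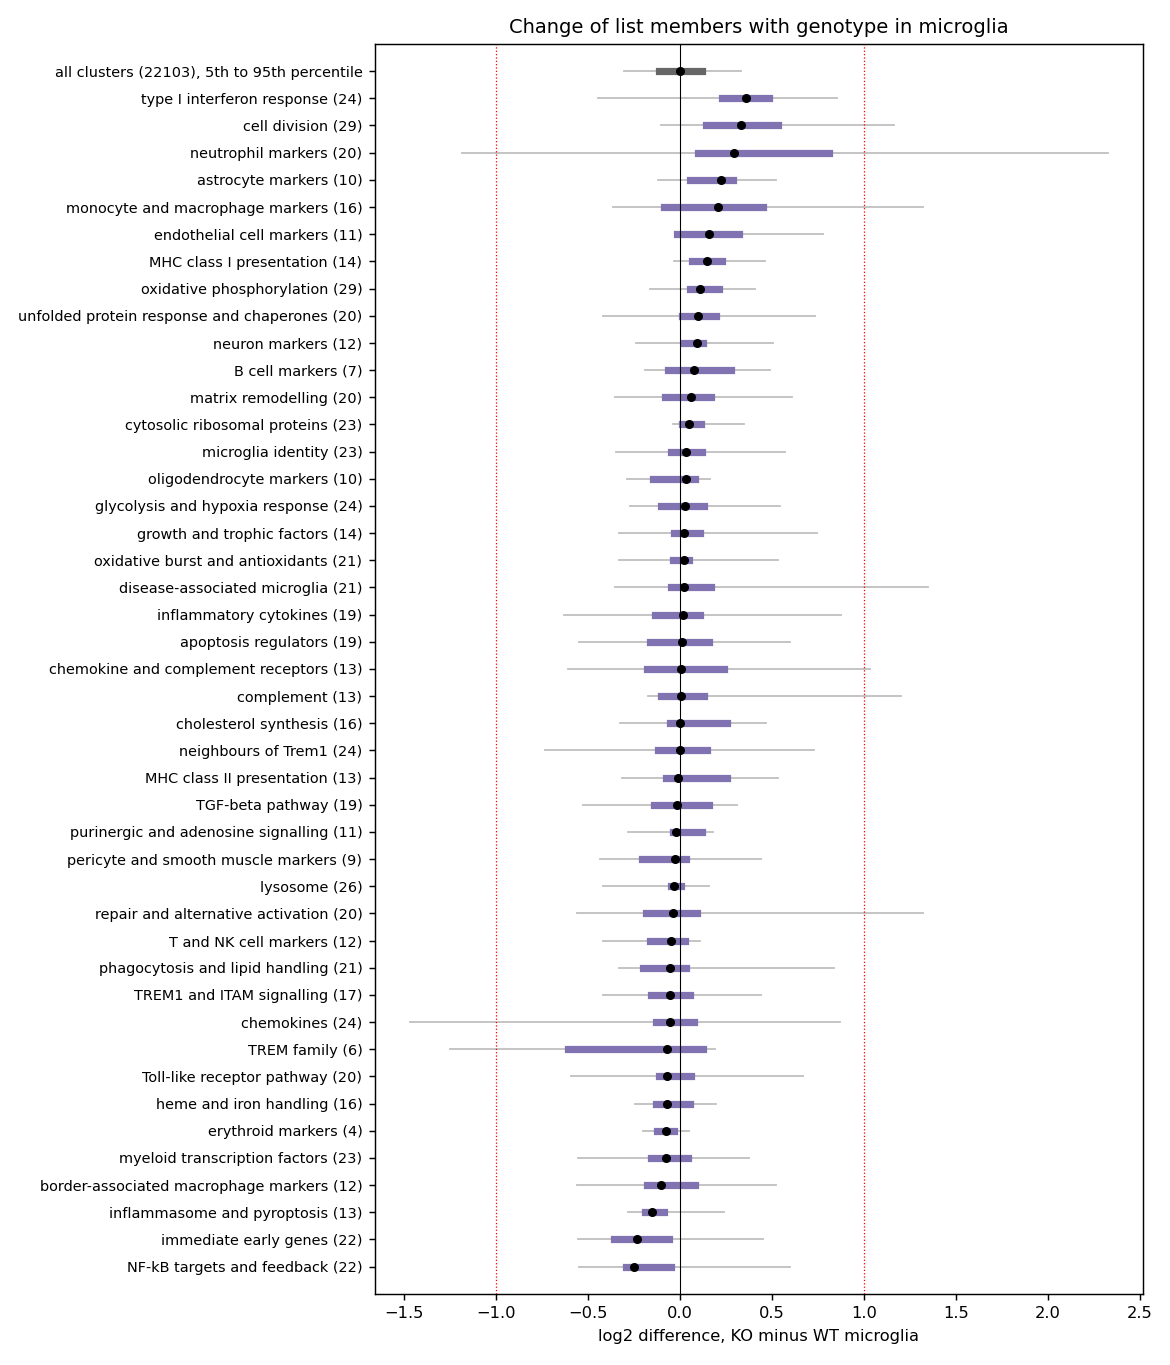
Log2 difference, KO minus WT microglia (x axis), over the measured members of each gene list (rows, number of genes in brackets). Points are medians, thick bars the middle 50% of members and thin lines their whole range, while the top row shows all 22103 clusters with the 5th to 95th percentile as its thin line and dotted lines mark a 2-fold change. The type I interferon response is highest at a median of 0.36 and NF-kB targets lowest at -0.25.

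How large a change the data leave room for was read from the 95% interval of each difference, which holds for a cluster at a time. In 20704 of 22103 clusters (93.7%) the interval lay inside a 2-fold change in either direction. The median interval reached 0.397 on the log2 scale to each side of the difference, a factor of 1.32, and the median absolute difference was 0.117. From the 5th to the 95th percentile the differences ran from -0.30 to 0.33. In a fit on the 12 microglia arrays alone 21177 intervals (95.8%) lay inside a 2-fold change, and 20551 did so in both fits. Of the 5526 dimmest clusters 98.4% had such an interval, and of the 5526 brightest 90.4%. Whether dim clusters exceeded background is not known, and their narrow intervals bound the intensity and not the RNA. The median SD between arrays was 0.30 in KO microglia and 0.30 in WT microglia.

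**Figure D4:**
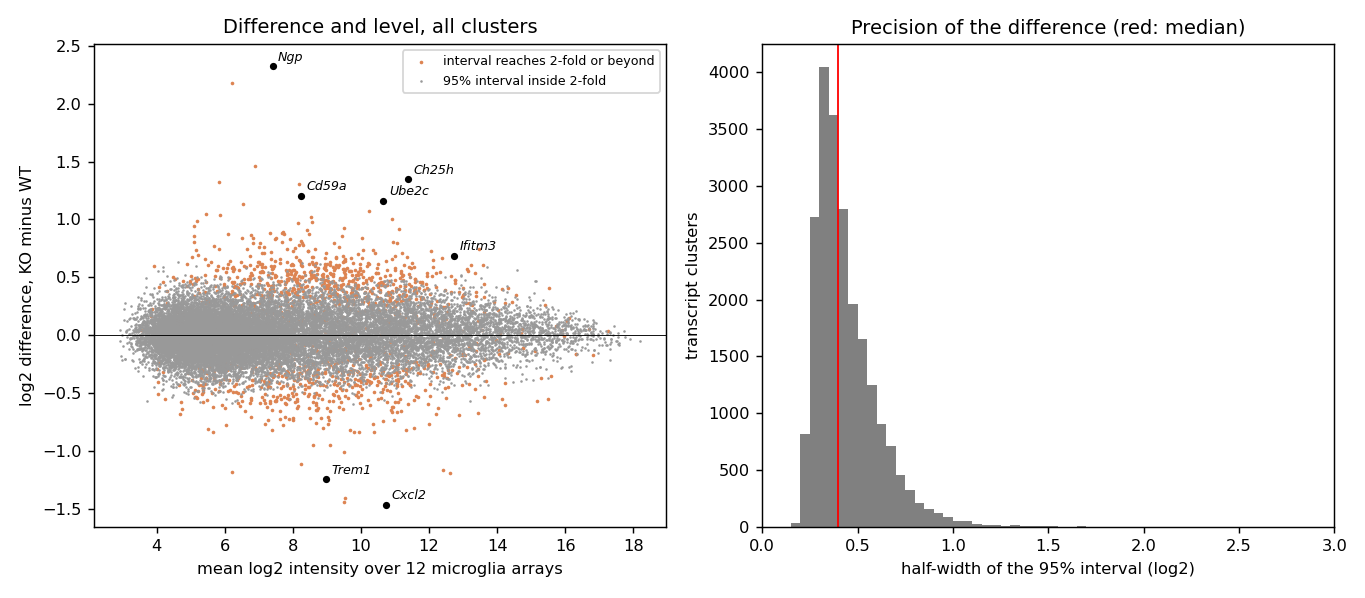
Left, log2 difference of KO minus WT microglia (y axis) against the mean log2 intensity over the 12 microglia arrays (x axis) for all 22103 clusters. Orange points have a 95% interval that reaches a 2-fold change or beyond, and Trem1, Ifitm3, Ch25h, Cd59a, Cxcl2, Ngp and Ube2c are named. Right, number of clusters (y axis) by the distance from the difference to the end of its 95% interval in log2 units (x axis), with a red line at the median of 0.397. From the 5th to the 95th percentile the differences run from -0.30 to 0.33.

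The change with genotype was then set against that in neutrophils, where 4390 clusters (19.9%) had passed an adjusted p under 0.05. Over all clusters the median absolute difference was 0.117 in microglia and 0.331 in neutrophils. In the 4390 clusters, which were chosen by their neutrophil values, it was 0.117 in microglia, and in 4049 of them (92.2%) the microglia interval lay inside a 2-fold change. Of the 2033 among them that differed by 2-fold or more in neutrophils, 1709 (84.1%) had such a microglia interval. A median absolute difference also grows with the spread between arrays. The neutrophil groups held 5 KO and 4 WT arrays, and a WT neutrophil array correlated within its group at 0.933 to 0.962 on average. The means of some lists, of marker genes of other cells and of processes, also moved with genotype in the neutrophil arrays. The border-associated macrophage mean was 9.78 to 10.86 in KO neutrophils and 8.98 to 9.52 in WT neutrophils, and the mean of phagocytosis and lipid handling was 10.81 to 11.34 in KO neutrophils and 9.72 to 10.46 in WT neutrophils. The microglia identity mean was 10.40 to 11.37 in KO neutrophils and 10.12 to 11.00 in WT neutrophils, while the neutrophil marker mean was 12.27 to 13.35 in KO neutrophils and 13.36 to 15.41 in WT neutrophils. The genotypes did not overlap in these means except for microglia identity. The part of these shifts in the contrast was not tested. The difference between the cell types itself passed in 1280 clusters (5.79%), and 1254 of them were among the 4390. The change was more positive in microglia in 383 clusters (1.73%) and more negative in 897 (4.06%). With each array centred on its median the split was 225 and 1154. The count rested on the neutrophil arrays, with 724 without KO neutrophil 1, 2118 without KO neutrophil 5 and 2611 without WT neutrophil 1.

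The named genes of this contrast are given with the difference in each cell type. Mertk differed by -0.28 in microglia and 3.13 in neutrophils (difference of the changes -3.41, SE 0.48, adjusted p = 0.000157 by limma). Rab3il1, an exchange factor for Rab GTPases, differed by -0.02 in microglia and 3.64 in neutrophils (-3.67, SE 0.51, adjusted p = 0.000157). It was at 13.31 to 13.92 in KO microglia and 13.49 to 13.73 in WT microglia. The helicase gene Ddx18 (0.00 in microglia, 3.31 in neutrophils) and the lysosomal disease gene Cln8 (-0.30 and 3.35) belonged to the same direction, and so did the carbonyl reductase gene Cbr2 (-0.12 and 3.39). The difference of the changes of Cln8 no longer passed without KO microglia 6, KO neutrophil 1, 3 or 4, or WT neutrophil 3 or 4 (adjusted p up to 0.0805). That of Cbr2 no longer passed without KO neutrophil 1 or 4, WT neutrophil 3, or KO microglia 2 and 4 together (adjusted p up to 0.055). For Ddx18 it was -3.31, and -2.05 without WT neutrophil 4. In the other direction were the lipase gene Lipg (0.15 in microglia and -2.80 in neutrophils), Cped1 (0.17 and -2.85), Ifitm6 (0.50 and -2.83), Retnlg (1.04 and -1.98) and Chil3 (1.32 and -1.52). These last 5 genes were dim in microglia, and without KO microglia 2 Retnlg differed by 0.37 there. The difference of the changes of Retnlg was just past the threshold (adjusted p = 0.0491) and ended under 24 of 38 alternatives.

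Several members of the lists above also differed between the cell types. Trem2 differed by 0.13 in microglia and 3.03 in neutrophils (difference of the changes -2.90, SE 0.45, adjusted p = 0.000493). C3ar1 differed by -0.10 in microglia and 1.88 in neutrophils (-1.98, SE 0.28, adjusted p = 0.000157). Ifitm3 differed by 0.69 in microglia and -0.45 in neutrophils (1.14, SE 0.25, adjusted p = 0.00609), and Esco2 by 1.02 and -0.38 (1.40, SE 0.40, adjusted p = 0.0331). The result for Esco2 ended under 10 of 38 alternatives, among them all 3 other scalings and leaving out KO microglia 1, WT microglia 3 or 6, KO neutrophil 1 or 4, or WT neutrophil 2 or 4 (adjusted p up to 0.078). Trem1 differed by -1.25 in microglia and -1.22 in neutrophils (-0.02, SE 0.55, adjusted p = 0.985), and this interval is too wide to show that the changes are alike.

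**Figure D5:**
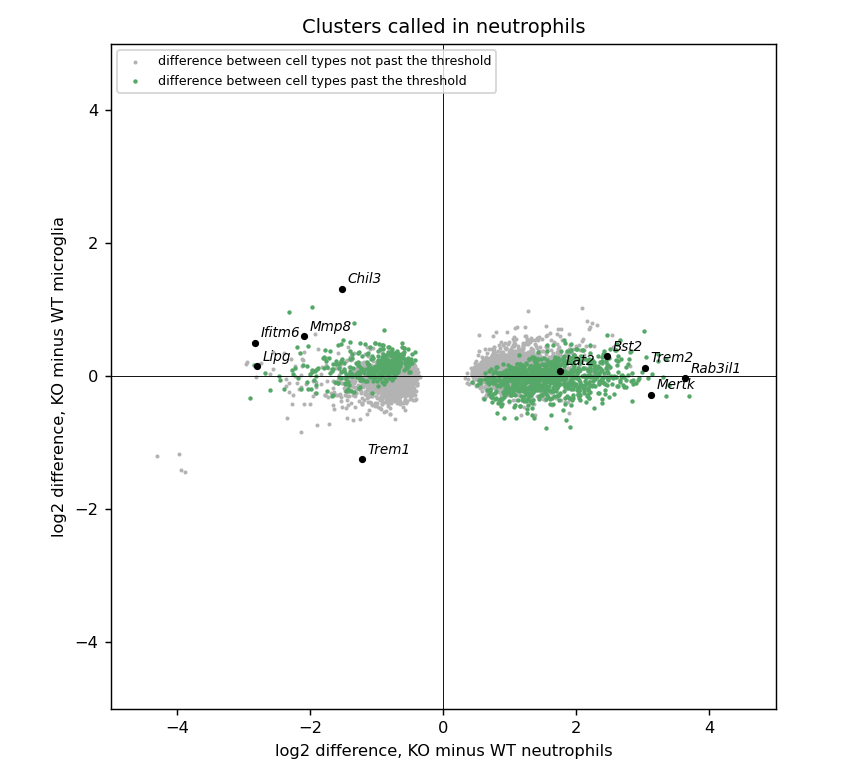
Log2 difference of KO minus WT in microglia (y axis) against that in neutrophils (x axis) for the 4390 clusters past the threshold in neutrophils, with green points where the difference between the cell types also passed, and 10 genes named. The clusters were chosen by their x values, which leaves the gap around 0 on the x axis, and on the y axis their median size is 0.117.

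Against macrophages, in which 1 cluster had passed an adjusted p under 0.05 (0.00452%), the change with genotype in microglia differed in no cluster by limma (0.0%). The smallest adjusted p was 0.555, and 761 clusters (3.44%) had an unadjusted p under 0.05. Trem1 differed by -1.25 in microglia and -0.49 in macrophages, and Ifitm3 by 0.69 and -0.04. With only 3 WT macrophage arrays behind this contrast, the absence of a call does not show that the changes are alike.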

How the data were processed

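Each sample was hybridised to an Affymetrix Clariom HT mouse array, with 0.6 to 0.8 ng of RNA of an integrity number above 7.5, per the labels' protocols. The authors used RMA to make the deposited intensity values, per the submitters' processing notes. RMA corrects background, normalizes arrays and summarises probes. Which arrays were normalized together, and the version, are not given in the sources used here. The table held 22103 transcript clusters on 30 arrays, on a linear scale, and its log2 was taken without a pseudocount or filter. Symbols came from the platform annotation, with 19508 clusters having 1 symbol, none several and 2595 none, and all 19508 matched the RefSeq annotation of GRCm38.p6 by gene number.

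Groups were taken from the labels. The fit was a limma 3.58.1 model (R 4.3.3) with a mean for each of 6 groups over the 30 arrays (24 residual degrees of freedom), with Benjamini-Hochberg adjustment over all clusters and a threshold of 0.05. Every adjusted p, unadjusted p and 95% interval of a gene is from this fit unless another is named. The change in microglia was set against that in neutrophils or macrophages by an interaction contrast. The exact permutation test of Trem1 used the 12 microglia arrays. The p-values and intervals of the fit measure the spread between arrays of a group, pooled over the 6 groups. For microglia they therefore also rest on the neutrophil and macrophage arrays. An unadjusted p under 0.05 was reached by 646 clusters in this fit and by 776 without WT neutrophil 4. In a fit on the 12 microglia arrays alone it was reached by 779. The fit was tested on simulated data in which a cluster had the same spread in every group. That test could not show what unequal spread between the cell types does to the fit.

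The comparison, the 43 gene lists (745 genes, 670 of them measured) and the rule for named genes were chosen with earlier results of these data known. Lists were described by counts and medians and not tested. List genes that had no cluster were not analysed here. The rule took, where a gene had several clusters, the brightest, and passed over predicted and clone-named models. It took Trem1, the 10 higher and 10 lower genes with the smallest unadjusted p above the median level of 6.82, and in each list the 2 genes with the smallest p and the 2 brightest. It also took up to 5 genes in each direction of each interaction, the TREM and ITAM lists, the genes within 1 Mb of Trem1, and defining markers. It gave 221 genes, of which 104 are named. Alternatives were other scalings, array weights, a variance trend, leaving out dim clusters, 1 cluster per gene, each array left out in turn, and fits on the 12 microglia arrays alone, with and without a block for replicate number. Leaving out neutrophil and macrophage arrays was added after the data were seen. Plots used Python 3.11.15 and matplotlib 3.10.9.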

Additional observations from a re-analysis of the deposited data

Results flagged for a closer look

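Among 296 groups of arrays examined, 2 for each named gene and each gene list, 28 had an array far from the others of its group by the Dixon test, which chance gives in about 1 of 20 groups. In KO microglia 2 these were the neutrophil marker mean at 8.75, Retnlg at 9.36, Mki67 at 13.52, Pgam1 at 14.10 and Treml1 at 7.04. In KO microglia 3 they were Birc3 at 10.54, Guca1a at 7.73 and the list means of TGF-beta pathway (10.66), myeloid transcription factors (11.01) and immediate early genes (11.70). In KO microglia 5 they were Ifitm3 at 13.68, Mrc1 at 12.71 and the border-associated macrophage mean at 9.43. In KO microglia 6 they were Ly96 at 11.50, C1qa at 15.65, C1qb at 15.14 and the type I interferon mean at 8.82.

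In WT microglia 1 the values far from the others were Trem1 at 7.62, Gfap at 6.01 and the T and NK cell marker mean at 5.06. In WT microglia 3 they were Chil3 at 7.39, Psmb9 at 10.40 and the list means of monocyte and macrophage markers (9.07), MHC class II presentation (10.25) and matrix remodelling (10.62). In WT microglia 4 it was Birc3 at 7.10, and in WT microglia 5 Il1r2 at 10.91 and the phagocytosis and lipid handling mean at 11.35.

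The change with genotype differed between microglia and neutrophils, by the interaction test, in 1280 clusters. Among the named genes the change in microglia minus that in neutrophils was -3.67 for Rab3il1, -3.65 for Cln8, -3.51 for Cbr2, -3.41 for Mertk, -3.31 for Ddx18, -2.90 for Trem2 and -2.83 for C1qb. It was -2.16 for Bst2, -1.98 for C3ar1, -1.53 for Calr, -1.003 for Usp36 and -0.78 for Ctsb. It was positive for Ifitm6 (3.33), Retnlg (3.02), Cped1 (3.01), Lipg (2.95), Chil3 (2.84), Esco2 (1.40) and Ifitm3 (1.14). The results for Usp36 and Chil3 ended without KO microglia 2 and 4 together, with an adjusted p of 0.0545 and 0.0531 by limma.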

How the results depend on the processing

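In 40 alternatives the count of clusters past an adjusted p under 0.05 was 0, except that it was 1 without WT microglia 5 (an unnamed cluster, adjusted p = 0.00865) and 1 without KO microglia 2 and 4 together (Tekt2, named after its value was seen, adjusted p = 0.0153). With single microglia arrays left out it ran from 0 to 1. The count at an unadjusted p under 0.05 ran from 448, without the dimmest 25% of clusters, to 932, with the replicate number as a block in a fit on the 12 microglia arrays. Same-numbered KO and WT arrays correlated at -0.08 to 0.24 and only KO microglia 1 and 2 correlated best with their own number, so the numbers were not taken as pairs, and the block left 0 clusters past the adjusted p. Trem1 differed by -1.64 to -1.08 in the 40 alternatives and its adjusted p was 0.0857 or more. Its exact permutation p ran from 0.00433 to 0.0736 with single arrays left out, and was 0.0524 without KO microglia 2 and 4 together. The count of clusters that differed between microglia and neutrophils ran from 724 to 2611 with single arrays left out, and none differed from macrophages in the 38 alternatives that included macrophages. Of the other 103 named genes 20, and of the 44 list medians 25, changed sign in at least 1 of the 22 alternatives chosen at the start. The medians of the interferon, cell division, neutrophil, NF-kB, immediate early and inflammasome lists kept their sign under those 22, and none of the 103 genes passed the adjusted p. No background signal was analysed here, so a floor for dim genes is unknown.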
